A study of Caenorhabditis elegans with 2 samples.

Results

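The mitochondrial ribosome protein genes were examined as possible binding targets of D2030.7, a C. elegans protein with a C2H2-type zinc finger domain. They were taken as every protein-coding gene whose symbol in the Ensembl annotation of WBcel235 begins with mrpl- (large subunit) or mrps- (small subunit). The rule gave 70 genes of 19973 protein-coding genes on the nuclear chromosomes, 41 of the large and 29 of the small subunit. Of these genes, 18 had a peak summit of the authors' conservative pooled list in the promoter window, defined as 1000 bp upstream to 200 bp downstream of the annotated 5′ end. That is 25.7% of the 70 genes (exact 95% interval 16.0 to 37.6), while 9.79% of all protein-coding genes had such a summit.

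Animals were of strain RW12302, in which the endogenous D2030.7 gene on chromosome I carries a CRISPR insertion of TY1, EGFP and 3xFLAG tags. Whole young adults at 62.5 hours, synchronised by starving hatched L1 larvae after bleaching, were used for chromatin immunoprecipitation with an anti-GFP antibody and sequencing. There were 2 biological replicates of this 1 group, with no second genotype, age or treatment. The labels name a possible control experiment, whose data were not analysed here, so promoters that give peaks in any experiment of this kind cannot be told apart from those bound by D2030.7. The chromatin came from all tissues together, so strong binding in few cells and weak binding in many cannot be told apart.

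Mitochondria keep their own ribosomes, which translate the few membrane proteins of the respiratory chain that the mitochondrial genome encodes. All the protein subunits of these ribosomes are made from nuclear genes in the cytosol and imported, some descended from bacterial ribosomal proteins and others found in mitochondria alone. In C. elegans, loss of mitochondrial ribosome proteins such as MRPS-5 is known to induce the mitochondrial unfolded protein response and to lengthen life. Many worm housekeeping genes lie in operons, in which a promoter ahead of the leading gene drives several genes in a row, or in head-to-head pairs that share a promoter region.

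The symbols were checked against RefSeq product names, which were found for 70 of the 70 genes. In 66 the product named the same subunit as the symbol, and in mrpl-36 and mrps-27 it named neither subunit. The products of the other 2 named the opposite subunit: mrps-18C is annotated as large subunit protein uL3m, and mrpl-48 as a small subunit uS10 domain protein. Neither of these 2 genes had a summit in the conservative pooled list. In the replicate 1 list and the other pooled list mrpl-48 had one, and it is counted there with the large subunit.

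The DNA under the peaks is shown for 6 genes as the 100 bases centred on the summit, read 5′ to 3′ on the strand of the mitochondrial ribosome gene (WBcel235). The first 4 are those with the highest signals after mrpl-15, in order of signal: mrpl-28 (chrII:156044-156143, minus strand), mrps-21 (chrIV:4660462-4660561, minus strand), mrpl-55 (chrIV:443787-443886, plus strand) and mrpl-45 (chrIII:1202260-1202359, minus strand). The last 2, mrps-16 (chrII:5474080-5474179, plus strand) and mrpl-12 (chrIII:10707208-10707307, plus strand), were added because they contain a recurrent word. Capitals mark bases that belong to any of the 10 words described further down as most over-represented at the summits of other genes' promoters.
mrpl-28: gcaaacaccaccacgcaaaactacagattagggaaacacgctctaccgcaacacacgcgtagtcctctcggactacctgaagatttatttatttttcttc
mrps-21: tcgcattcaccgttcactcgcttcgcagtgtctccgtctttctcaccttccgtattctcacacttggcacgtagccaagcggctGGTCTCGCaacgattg
mrpl-55: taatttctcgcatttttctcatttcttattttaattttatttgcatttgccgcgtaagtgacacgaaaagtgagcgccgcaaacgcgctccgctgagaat
mrpl-45: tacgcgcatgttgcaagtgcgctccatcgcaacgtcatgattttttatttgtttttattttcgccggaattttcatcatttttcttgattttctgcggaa
mrps-16: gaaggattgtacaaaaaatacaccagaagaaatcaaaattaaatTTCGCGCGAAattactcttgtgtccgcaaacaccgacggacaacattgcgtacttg
mrpl-12: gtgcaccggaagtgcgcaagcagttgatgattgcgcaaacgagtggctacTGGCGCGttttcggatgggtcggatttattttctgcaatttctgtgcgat

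Capitals appear in the mrps-21, mrps-16 and mrpl-12 sequences, and the mrpl-28, mrpl-55 and mrpl-45 sequences hold none of the 10 words. None of the 6 windows overlaps an annotated exon.

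The large subunit supplied 13 of the 18 genes, or 31.7% of its 41 genes (18.1 to 48.1), and the small subunit 5, or 17.2% of 29 (5.85 to 35.8). The intervals overlap over most of their range, and these intervals cover only the counting of genes. With replicate 1 alone, 16 of the 70 genes had a summit (22.9%, against 9.08% of all genes), and with replicate 2 alone 9 (12.9%, against 6.55%). Leaving out replicate 1 thus moved the count by 1.5 times or more, with the large subunit at 7 and the small at 2. In the authors' other, less strict pooled list 23 genes had one (32.9%, against 10.5%). Keeping the peaks whose irreproducible discovery rate (IDR, which falls as a peak's rank is shared better between the inputs) reached a −log10 of 3 left 11 genes (15.7%, against 6.48% of all genes). The 1388 strongest peaks of the list left 10 (14.3%, against 5.63%).

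Signal is the authors' deposited peak signal value in each list, in arbitrary units, and values from different lists are given side by side without a shared scale. A peak past the authors' IDR threshold is called thresholded, and a candidate below it is called ranked. The 18 strongest summits had signals from 71.75 to 321.7 in the conservative pooled list, with a median of 139, while that list had a median of 130 and a top of 1268. Their median percentile within the list was 54.8, and 10 of the 18 lay above the list's median. Across all protein-coding genes with a summit, the median of the strongest signals was 144.

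Of the large subunit genes, mrpl-15 and mrpl-28 had the highest signals. They encode uL15m and bL28m, counterparts of bacterial ribosomal proteins. At mrpl-15 (WBGene00022373, chromosome I, 1436279 to 1441334, plus strand) the signal was 321.7 in the conservative pooled list, 206.8 in that of replicate 1 and 111.0 in that of replicate 2. At mrpl-28 (WBGene00020796, chromosome II, 154881 to 156009, minus strand) it was 287.6, 166.8 and 111.6 in the same order. Both peaks were thresholded in both replicates, and they ranked 249 and 304 of 2777 in the conservative pooled list. The mrpl-15 summit lay 603 bp upstream of the annotated 5′ end and the mrpl-28 summit 85 bp upstream, and neither lay in another protein-coding gene's window.

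Another 2 large subunit genes had thresholded peaks in both replicates. They encode the mitochondrial protein L55 and mL45, and the latter is known in mammals to sit at the mouth of the exit tunnel, where it anchors the ribosome to the inner membrane. The mrpl-55 peak (summit on chromosome IV at 443837, 148 bp upstream) had a signal of 178.0 in the conservative pooled list, 99.68 in replicate 1 and 65.61 in replicate 2. The mrpl-45 peak (chromosome III, 1202310, 302 bp upstream) had 177.1, 102.8 and 73.78. The mrpl-55 summit stood alone in its promoter, whereas the mrpl-45 summit was nearer to the 5′ end of Y119D3B.12, a Luc7-like splicing factor gene on the other strand.

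At 5 large subunit genes the peak was thresholded in replicate 1 but only a ranked candidate in replicate 2. The mrpl-23 peak (uL23m, whose bacterial counterpart lines the tunnel exit) had 172.0 in the conservative pooled list, 112.0 in replicate 1 and 55.81 in replicate 2. The mrpl-37 peak (mL37, a mitochondria-specific protein) had 146.6, 107.2 and 40.27. The mrpl-12 gene, named for the stalk protein that recruits translation factors to the ribosome, had 107.3, 63.17 and 50.87. The remaining 2 genes encode counterparts of bacterial proteins and had lower signals in the conservative pooled list. The mrpl-17 peak (bL17m) had 102.8, 68.32 and 32.76. The mrpl-35 peak (bL35m) had 92.34, 66.14 and 32.64, and there the replicate 2 summit lay 194 bp from the pooled one, so its replicate 2 value may describe another place in the promoter. The mrpl-23 summit lay 964 bp upstream, within an intron of fars-1 (a subunit gene of phenylalanine tRNA ligase) and within 200 bp of the small nucleolar RNA gene T08B2.13. It was the 1 summit of the 18 near a tRNA, snRNA or snoRNA gene, and 17 genes keep a summit when such summits are left out.

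The reverse pattern, thresholded in replicate 2 and ranked in replicate 1, was seen at mrpl-18 and mrpl-9. Both encode counterparts of bacterial proteins, uL18m and bL9m. The mrpl-18 peak had 113.1 in the conservative pooled list, 52.25 in replicate 1 and 66.79 in replicate 2. The mrpl-9 peak had 85.28, 39.23 and 50.98. The mrpl-9 peak was thresholded in replicate 2 at a lower signal than the mrpl-18 peak had as a ranked candidate in replicate 1, so levels are not compared between the lists.

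Peaks thresholded in neither replicate were found at mrpl-40 and mrpl-49, which encode the mitochondria-specific proteins mL40 and mL49. The mrpl-40 peak had 84.49 in the conservative pooled list, 41.94 in replicate 1 and 46.32 in replicate 2. Its summit, 212 bp upstream, fell in an exon of the neighbour F54C4.4, and a second summit 13 bp upstream had a signal of 12.58. The mrpl-49 peak had 74.42, 37.4 and 37.32, with its summit 928 bp upstream in an exon of rpl-28, a cytosolic ribosomal protein gene. A peak nearer to mrpl-49, 134 bp upstream, had a signal of 107.8 in the other pooled list and was thresholded in replicate 1 (78.64, 135 bp upstream). Its −log10 IDR between the replicates was 0.14, and it is not in the conservative pooled list.

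Of the small subunit genes, mrps-21 and mrps-35 had peaks thresholded in both replicates. The mrps-21 gene is named for a small subunit protein with a bacterial counterpart, and mrps-35 encodes the mitochondria-specific mS35. The mrps-21 peak had 233.5 in the conservative pooled list, 142.6 in replicate 1 and 92.07 in replicate 2. The mrps-35 peak had 161.5, 83.99 and 66.59. The mrps-21 summit lay 995 bp upstream, at the edge of the window, and the replicate 1 summit 24 bp away fell just outside it. It was nearer to the 5′ end of F29B9.11, which is annotated as cytochrome c oxidase polypeptide VIIc and lies between the summit and mrps-21. The mrps-35 summit, 120 bp upstream, fell in an exon of sws-1, which overlaps mrps-35 head to head.

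The other 3 small subunit genes had weaker support in at least 1 replicate. They encode uS7m, bS16m and uS15m, counterparts of bacterial proteins that bind the small ribosomal RNA. The mrps-7 peak had 148.6 in the conservative pooled list, 102.9 in replicate 1 (thresholded) and 45.45 in replicate 2 (ranked). The mrps-16 peak had 131.4, 88.09 (thresholded) and 38.07 (ranked). The mrps-15 peak had 71.75, 45.32 and 34.32, was ranked only in both replicates, and is not in the other pooled list. It was the weakest of the 18, at rank 2533 of 2777.

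**Figure D1:**
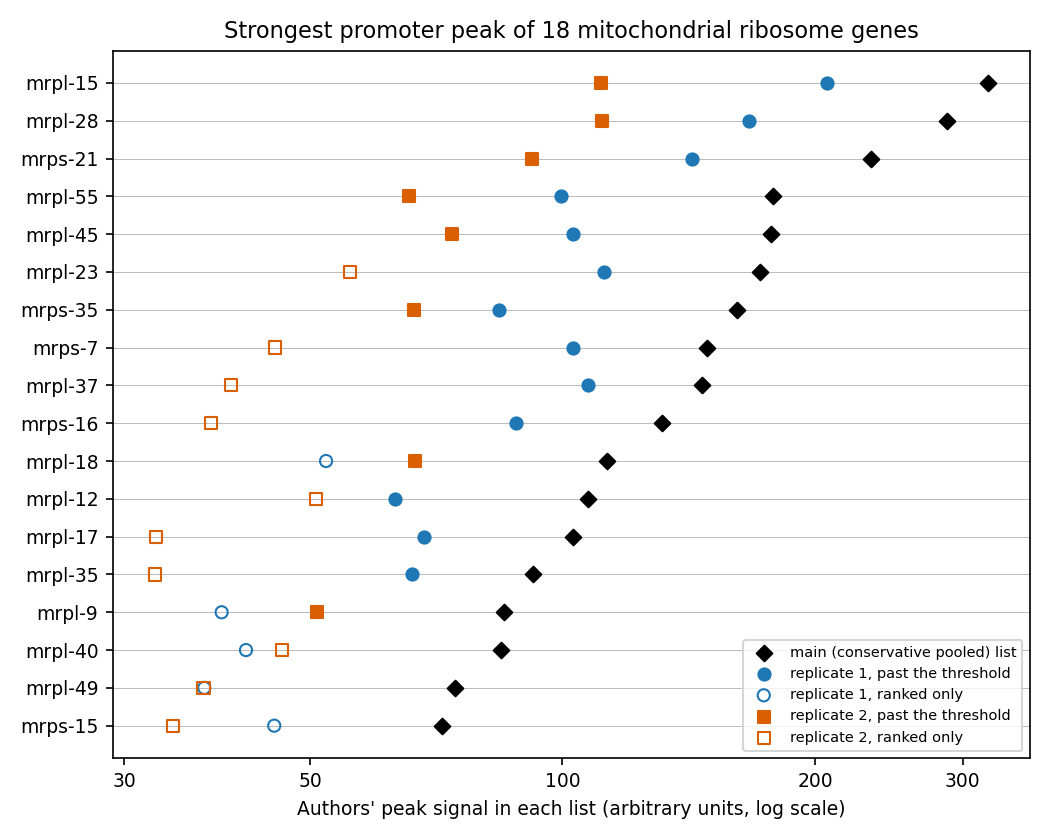
Authors' peak signal (arbitrary units, log axis) at the strongest promoter summit of each of the 18 genes, ordered from mrpl-15 (321.7) to mrps-15 (71.75) in the conservative pooled list (diamonds). Circles are replicate 1 and squares replicate 2, filled where the peak was thresholded and open where it was ranked only; each list has its own scale, so a reader should compare the order of genes within a symbol and the fill, not the height of different symbols.

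Counted by summits in the promoter window, 5 of the 70 genes were thresholded in both replicates (mrpl-15, mrpl-28, mrpl-45, mrpl-55 and mrps-35). That is 7.14%, and 5.88% of all protein-coding genes were, so in this count the mitochondrial ribosome genes lay close to the background. Counting by overlap of the pooled peak by at least 1 bp adds mrps-21 and gives 6. That rule was not applied to all protein-coding genes, so the 6 has no background share. With any ranked candidate in each replicate the count was 49 genes, or 70% of the 70, where 27.6% of all protein-coding genes had one in each. Only mrpl-28, mrpl-55 and mrps-35 kept a summit in each of the lists, windows and thresholds tried.

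The remaining 52 genes had no summit in the conservative pooled list, and 44 genes had none in any of the 4 thresholded lists. In 8 of the 52, another thresholded list held a summit. The other pooled list held a peak at mrpl-48 (signal 85.36), mrpl-51 (82.62), mrps-17 (80) and mrps-12 (75.07), where mrps-12 encodes uS12m, the counterpart of the bacterial protein at the decoding centre. These 4 had the highest signals among the 52 genes in the ranked form of the conservative list too, where their −log10 IDR was 1.93, 1.6, 1.93 and 1.8, under the lowest value of 2.0 among the thresholded peaks. The same other pooled list held peaks in the shared promoter region of mrpl-1 and mrps-24, which lie head to head, the highest at 52.89. The mrpl-38 gene had a thresholded peak in replicate 2 alone (signal 40.14, 610 bp upstream), and mrps-6 in replicate 1 alone (55.01, 345 bp upstream).

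Below the threshold most of the genes had candidates. The ranked form of the conservative list holds 67021 peaks, and 61 of the 70 genes had one in the window (87.1%, against 53.5% of all protein-coding genes), including 43 of the 52 without a thresholded summit. The 9 genes with no candidate were mrpl-11, mrpl-19, mrpl-21, mrpl-22, mrpl-30, mrpl-54, mrps-18B, mrps-22 and mrps-26. The mrps-5 gene, named here for its known role after its values were seen, had a candidate of signal 35.74 placed 477 bp upstream, with a −log10 IDR of 0.14.

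All 18 strongest summits lay upstream of the annotated 5′ end. Their median position was 217 bp upstream, and 12 of the 18 lay within 300 bp. As the window reaches 1000 bp upstream but only 200 bp downstream, it favours upstream positions, and positions were not computed for all genes. At 3 genes the summit lay more than 900 bp upstream (mrps-21, mrpl-23 and mrpl-49). Those summits lay nearer to the 5′ end of F29B9.11, in an intron of fars-1 and in an exon of rpl-28, respectively. Of the 18 summits 14 were intergenic, 3 were in an exon and 1 in an intron of a neighbouring gene. In the narrower window of 500 bp upstream to 100 bp downstream, 13 genes had a summit (7.65% of all genes did).

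**Figure D2:**
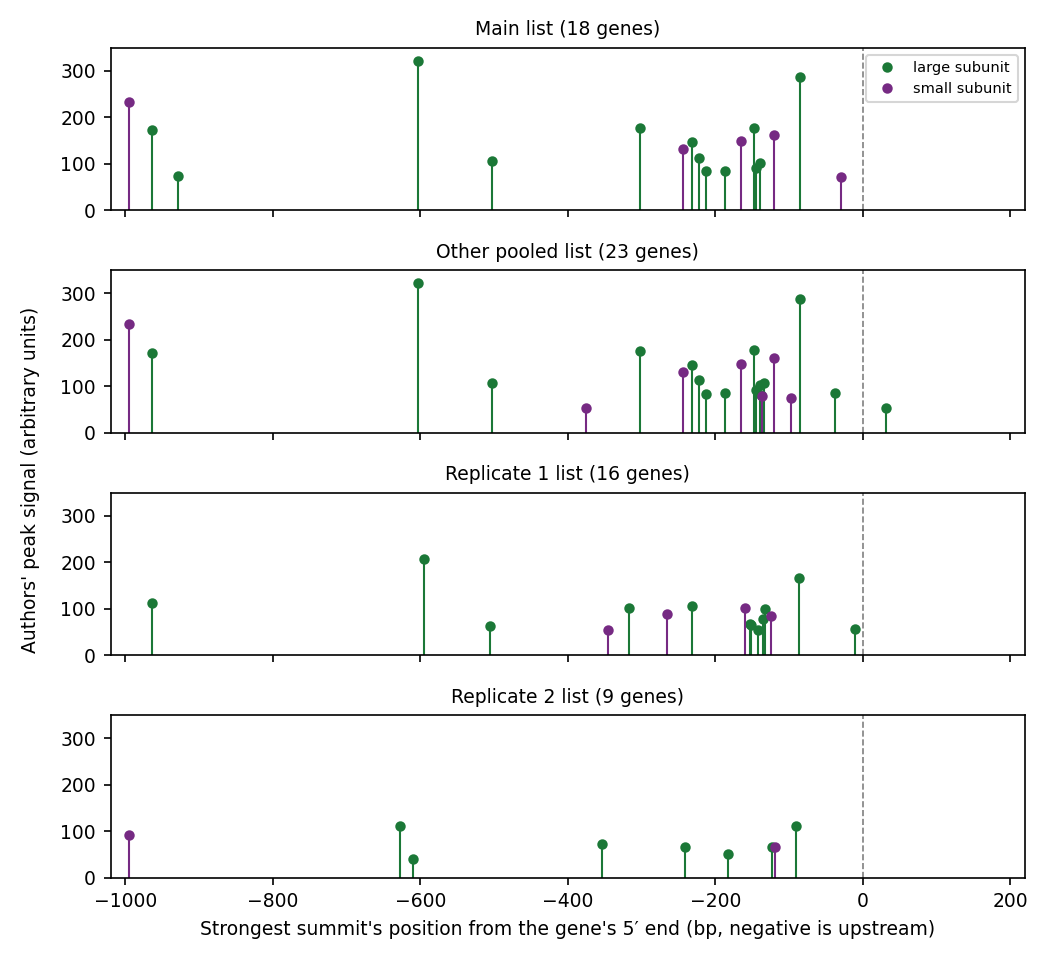
Position of each gene's strongest summit from the annotated 5′ end (horizontal axis, bp, negative upstream, dashed line at the 5′ end) against the authors' signal in that list (vertical axis, arbitrary units), for large subunit (green) and small subunit (purple) genes in the 4 thresholded lists. In the conservative pooled list (top) 12 of the 18 summits lie within 300 bp upstream and 3 lie beyond 900 bp.

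Most of the summits were shared with another gene. In 11 of the 18 the strongest summit also lay in the window of another protein-coding gene, none of them a mitochondrial ribosome gene, and the mitochondrial ribosome gene had the nearest 5′ end in 10 of 18. Neither share was computed over all protein-coding genes with a summit, so whether sharing is more common here was not tested. The sharing genes had varied products. The mrps-15 summit lay in the window of asg-1, annotated as a mitochondrial ATP synthase subunit. The mrpl-12 summit lay nearest to Y39A1A.22, its head-to-head neighbour, annotated as a homolog of a retrovirus receptor, and also in the window of Y39A1A.21, annotated as a methyltransferase of ATP synthase subunit C. The mrpl-9 summit lay 169 bp upstream of kin-3 (casein kinase II) and the mrpl-17 summit 283 bp upstream of vbh-1 (an RNA helicase). The mrpl-37 summit was shared with lin-38, annotated with a C2H2-type domain, and the mrpl-18 summit with C14B9.8, a phosphorylase kinase subunit. The mrps-7 summit was shared with Y57G11C.3 (a putative 6-phosphogluconolactonase), the mrpl-35 summit with M01F1.4 (a transmembrane protein), and the mrps-21 summit also with jmjd-1.2 (a histone demethylase homolog). The mrpl-40 summit lay in the windows of F54C4.4 and attf-3. When each summit was given only to the nearest 5′ end among the genes whose windows held it, 12 mitochondrial ribosome genes had one (7.15% of all genes did), and the large subunit count was 8. The genes lost were mrps-21, mrpl-9, mrpl-12, mrpl-18, mrpl-35 and mrpl-45. When it was given only to the nearest 5′ end of any protein-coding gene, an alternative added after the data were seen, mrpl-49 was lost as well, to rpl-28. That left 11 genes (15.7%, with 7% of all genes) and a large subunit count of 7.

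The arrangement of neighbours differed from that of other genes as a description of the annotation. A head-to-head neighbour within 1000 bp was found at 27 of the 70 genes (38.6%, against 17.8% of all protein-coding genes). A tandem neighbour, on the same strand with its 3′ end within 500 bp or overlapping, was found at 28 (40%, against 20%). The other 15 had neither (21.4%, against 62.1%). None of the 70 genes lies on chromosome X, where 2.12% of protein-coding genes had a summit.

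The genes with a summit were spread unevenly over these arrangements. Among the 27 head-to-head genes 12 had one (44.4%, interval 25.5 to 64.7), and 25.5% of all head-to-head genes did. Among the 28 tandem genes 2 had one, mrpl-23 and mrps-21 (7.14%, 0.877 to 23.5), against 8.22% of all tandem genes. Among the 15 genes in the remaining class 4 had one (26.7%, 7.79 to 55.1), namely mrpl-15, mrpl-28, mrpl-55 and mrps-16, against 5.78% of all such genes. The tandem share was thus near its background. The head-to-head interval begins where its background lies. With replicate 1 left out the head-to-head count was 4, and the share of all head-to-head genes in that list was not computed. Closer limits on neighbours were 500 bp head to head and 200 bp tandem. Under them the remaining class had 8 genes with a summit of 29 (27.6%, against 8.21% of all such genes).

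Tandem genes can be transcribed from the promoter of the leading gene of the row. Of the 28 tandem genes, 19 (67.9%) lay 80 to 130 bp after the gene ahead, and 25.7% of all tandem genes did; the median gap was 106 bp, against 152 bp. For the 26 tandem genes without a summit of their own, the leading gene of the row had a summit in 12 (46.2%), and this held for 19.7% of all such tandem genes. Whether the rows are transcribed together was not measured here.

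The products of those leading genes were varied. The highest signal was 513.1, with its summit at -913 bp from the 5′ end of nrde-2, near the edge of that gene's window. The nrde-2 gene, of nuclear RNA silencing, is followed by mrps-14 after 106 bp. Next came clsp-1 (a claspin, 359.7), followed by mrpl-54 after 374 bp, and rpn-3 (a proteasome subunit, 245.3), followed by mrpl-32 after 411 bp. The vps-37 peak of 199.3 stood ahead of mrpl-48. Peaks from 73.61 to 120.2 stood ahead of the rows that hold mrps-18.C, mrpl-41, mrps-22, mrps-27, mrps-30, mrpl-42, mrpl-53 and mrpl-30. In the mrps-22 row the leading gene is rpb-6, an RNA polymerase subunit, and the gene just before mrps-22 is dap-3, which encodes the mitochondrial ribosome protein mS29 under a symbol outside the rule and had no summit of its own. The signals of 513.1 and 359.7 exceed the 321.7 of mrpl-15, but they lie 6061 and 3986 bp from the 5′ ends of mrps-14 and mrpl-54. From the leading gene's 5′ end, the summits ahead of these rows lay between -913 bp (nrde-2) and -33 bp (the mrpl-53 row). Whether any of them lies nearer to the 5′ end of a gene outside the row was not tested.

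**Figure D3:**
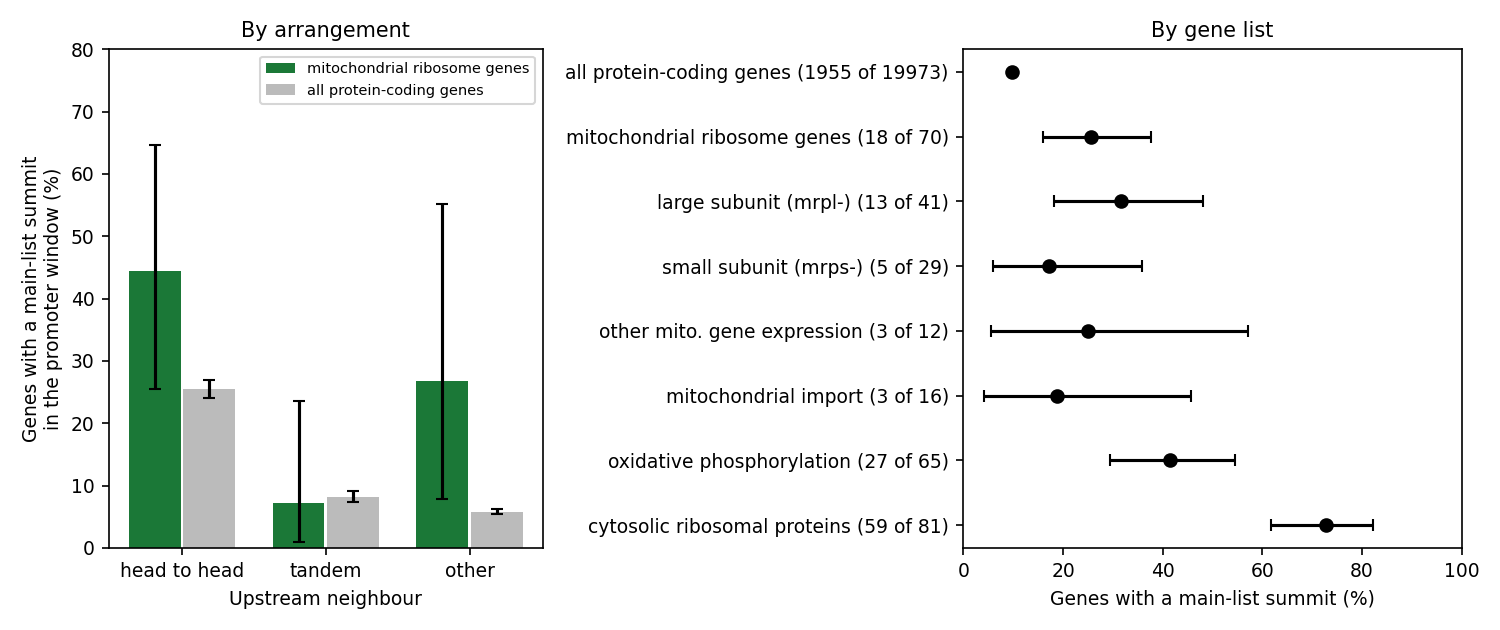
Percent of genes with a conservative-list summit in the promoter window. Left, bars for the 70 mitochondrial ribosome genes (green) and all protein-coding genes (grey) by upstream neighbour; right, points for each gene list; error bars are exact 95% binomial intervals over genes. The mitochondrial ribosome genes lie at 25.7%, between all protein-coding genes (9.79%) and the cytosolic ribosomal protein genes (72.8%).

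By the RefSeq product names, which were grouped after the values were seen, 32 genes encode proteins with a bacterial counterpart, and 10 of them (31.2%, 16.1 to 50) had a summit. Of the 19 genes for mitochondria-specific proteins 5 had one (26.3%, 9.15 to 51.2), and of the 19 whose product gives no such name 3 (15.8%, 3.38 to 39.6). The 3 intervals overlap.

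Recurrent words were taken from other genes so that the mitochondrial ribosome genes could be read against them. Words of 7 bases, counted on both strands together, were compared between 100 bp at 1355 promoter summits of other genes and 2710 flanking windows of the same length centred 300 bp to each side. Of 8192 words, 862 (10.5%) were more frequent at summits and 605 less frequent (two-sided Fisher's exact test, Benjamini-Hochberg adjusted p under 0.05). The word with the smallest p, CGAGACC, was in 13.3% of those summits and 1.18% of flanks (Fisher's exact test, Benjamini-Hochberg adjusted p = 2.13e-53). By share of summits the others of the 10 with the smallest p were AAGGCGC in 12%, GAGACCC in 11.3%, CCTTTAA in 11.1%, AAAGGCG in 10.8%, TACCGTA in 10.1%, GCGAGAC in 9.96%, AGGCGCA in 9.45%, GCGCGAA in 8.78% and CGCGCCA in 6.64%. Several of these words are the same letters shifted by a base or more, so they are not 10 separate motifs.

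Of the 18 mitochondrial ribosome summits, 5 held at least 1 of the 10 words (mrpl-15, mrps-21, mrps-16, mrpl-12 and mrpl-17), and none of their 36 flanking windows did. Other genes' promoter summits held at least 1 in 42.3%, their flanks in 5.83%, and windows of the same length placed 217 bp upstream of all 19973 genes in 7.54%. The 10 words were chosen on these same other-gene summits and flanks, so the 42.3% and 5.83% are not independent of that choice. In mrps-21 the words CGAGACC and GCGAGAC overlap on the strand opposite to the one printed, giving the capitals GGTCTCGC. In mrps-16 GCGCGAA occurs on both strands, giving TTCGCGCGAA, and in mrpl-12 the capitals TGGCGCG are CGCGCCA on the other strand. The mrpl-17 window held 4 of the words. With 200 bp windows 9 of the 18 held at least 1 word, so the count depends on the width taken. The shares at other genes were computed for 100 bp windows only. With replicate 2's own summits alone the count was 1, of the 9 genes with a summit in that list. Among all 862 words, none was in more than 4 of the 18 windows, and 5 words were in 4 of them, named here after the values were seen. They were AAACGCG (in 8.41% of other genes' summits), AAAACGC (in 5.17%), CTCTCTC (in 4.94%), CGCAAAC (in 4.58%) and CCGCAAA (in 3.54%). The genes holding AAACGCG were mrpl-15, mrpl-55, mrpl-12 and mrpl-40, and those holding CGCAAAC were mrpl-55, mrps-16, mrpl-12 and mrps-15. Both words can be read in the mrpl-55 sequence above, where their letters overlap.

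Base composition moved with the peaks. Median GC content was 45.0% in the 18 summit windows, from 21% at mrpl-37 to 57.0% at mrpl-23, and 38.0% in their flanks. At other genes' promoter summits it was 44.0%, and 35.0% in their flanks. The part of GC content in the word counts was not tested.

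Set beside other gene lists, the mitochondrial ribosome genes had fewer summits than the cytosolic ribosomal protein genes, of which 59 of 81 had one (72.8%, 61.8 to 82.1). The intervals of these shares do not overlap; when each summit went only to the nearest 5′ end among the genes whose windows held it, the cytosolic count was 35. The highest cytosolic signals were 1144 at rps-24, 1062 at rpl-3 and 954.9 at rpl-20, and 12 cytosolic ribosomal summits ranked above mrpl-15, the strongest mitochondrial ribosome gene. Nuclear oxidative phosphorylation genes had a summit in 27 of 65 (41.5%, 29.4 to 54.4), an interval that overlaps that of the mitochondrial ribosome genes. Giving summits to the nearest 5′ end of any protein-coding gene left 17 of them. Their highest signals were 680.2 at cox-5B, 381.9 at atp-1 and 379.1 at cox-5A.

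Other genes of mitochondrial gene expression had a summit in 3 of 12 (25%): mtcu-2, which is named for a mitochondrial tRNA modification factor (771.4), gfm-1, a mitochondrial elongation factor G (111.1), and tufm-2, a mitochondrial elongation factor Tu (81.28). Thresholded summits lay at mtcu-2 in both replicates, at gfm-1 in replicate 1 alone and at tufm-2 in neither. The other pooled list also lacked tufm-2. The tufm-1 gene had a summit in replicate 1 and the other pooled list, but not in the conservative list. Mitochondrial import genes had one in 3 of 16 (18.8%), with 263.3 at ddp-1, 144.7 at tomm-20 and 123.8 at tin-9.2. The latter 2 lists are small, and their shares are given as counts with no comparison.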

How the data were processed

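Anti-GFP ChIP-seq was measured in 2 biological replicates of 1 group. The authors deposited 8 peak lists on ce11 (WBcel235): 1 ranked and 1 thresholded for either replicate and for both pooled sets, per their names and labels. Neither aligner nor caller is given in the sources used here. Peak signal is the authors' deposited value and was used only within a list. The −log10 of the global IDR is the authors' deposited value in the ranked lists. The lists hold no read counts, so depth is unknown and intervals cover only the counting of genes.

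Summits (column 2 plus column 10) were placed in windows 1000 bp upstream to 200 bp downstream of 5′ ends from Ensembl release 115, and counted for every gene whose window held them. Shares have exact Clopper-Pearson 95% intervals. Each replicate's value at a pooled peak is that of its overlapping ranked peak. Python 3.11.15, numpy 2.4.6, pandas 2.3.3, scipy 1.17.1 and matplotlib 3.10.9 were used. Words were tested on other genes' promoter summits more than 200 bp from tRNA, snRNA and snoRNA genes. Word and window counting were tested on simulated data. The members and lists were chosen with earlier results of these data known, so no test was made on the members. Genes named are every one with a conservative-list summit and the neighbours sharing it, those with a summit in another thresholded list, the 3 highest-signal others, and up to 3 in each comparison list; the leading genes of tandem rows, dap-3 and the grouping by product were added after the values were seen. Sequences are from the RefSeq genome of WBcel235. Alternatives were another pooled list, each replicate alone, narrower windows, the nearest 5′ end (over genes whose windows hold the summit, and, added later, over all genes), stronger peaks, stricter IDR, ranked candidates, peak intervals, other transcripts' 5′ ends and wider word windows.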

Additional observations from a re-analysis of the deposited data

How the results depend on the processing

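Of 118 values recomputed under another setting, 87 stayed within 1.5 times the reported count, or within 1 SD between the replicate lists. Among the 118 are values for all protein-coding genes and for the comparison lists, so the total does not measure how stable the mitochondrial ribosome counts were. Both replicate lists are also settings compared with that SD, which grows when they disagree. Mitochondrial ribosome genes with a summit, 18 as reported, numbered 9 to 16 with 1 replicate left out (9 without replicate 1), 10 among the 1388 strongest peaks, 11 at the stricter IDR and 61 among ranked candidates. All protein-coding genes went from 1955 to 1124, 1294 and 10680 under the last 3 settings. Large subunit genes went from 13 to 7 to 12 with 1 replicate left out, 8 by the nearest 5′ end among genes whose windows hold the summit, 6 among the strongest peaks and 8 at the stricter IDR. Small subunit genes went from 5 to 2 to 4 and, at the stricter IDR, 3. Cytosolic ribosomal protein genes went from 59 to 35 by the nearest 5′ end. Mitochondrial gene expression genes went from 3 to 1 to 3 with 1 replicate left out, and to 1 among the strongest peaks and at the stricter IDR. Genes in both replicates went from 5 to 49 with ranked candidates. The median position ranged from -241 to -156 bp with 1 replicate left out, against -217. The median percentile, 54.8, was 42.6 in the other pooled list and 43.2 to 52.6 with 1 replicate left out. Head-to-head genes with a summit went from 12 to 4 to 10, tandem genes from 2 to 1 to 2 (4 in the other pooled list), and the remaining class from 4 to 8 with closer neighbours. Genes holding a recurrent word went from 5 of 18 to 1 of 9 without replicate 1 and 5 of 16 without replicate 2. In 200 bp windows they were 9 of 18. Fewer peaks enter the strongest set, the stricter IDR and the replicate 2 list. The cause of the changes under these and the other settings was not tested. With the nearest 5′ end of any protein-coding gene, added after seeing the data, there were 11 mitochondrial ribosome genes, 7 of the large subunit, 34 cytosolic ribosomal protein genes and 17 oxidative phosphorylation genes (27 as reported). No paired analysis was possible because there is 1 group. Without read counts, depth cannot be set against any missing peak.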
